A study of Mus musculus with 27 samples.

Results

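The acute response of mouse fibroblasts to the deletion of *Setdb1* was examined across all genes, with most attention to genes other than the interferon-induced ones. The members are the 6 libraries of the total RNA experiment labelled untreated (3) or day 5 after 4OHT treatment (3), out of 27 libraries in the series. All 27 came from *Setdb1* cKO iMEFs, an immortalized fibroblast culture from mouse embryos whose conditional *Setdb1* allele is deleted on addition of 4-hydroxytamoxifen (4OHT). The cells of the day 5 group received 4OHT for the first 4 days and were harvested on day 5, whereas the untreated group received none and no library used here pairs 4OHT with an intact *Setdb1*, so an action of 4OHT itself and the loss of *Setdb1* cannot be told apart. Day 5 after 4OHT was compared with untreated cells. The other libraries that enter are 3 long-term KO libraries of the same experiment (more than 2 weeks after 4OHT), 4 libraries at day 6 of a small interfering RNA (siRNA) experiment (control siRNA alone, and 4OHT with control siRNA) and 4 libraries of an inhibitor experiment (untreated, and day 6 after 4OHT), with 2 libraries in each of these day 6 groups. The day 6 libraries share no sample with the day 5 comparison, while long-term KO shares the untreated libraries.

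Setdb1 is a histone methyltransferase that trimethylates histone H3 on lysine 9, a mark of silent chromatin. It acts with the partner protein Atf7ip, which keeps it stable and in the nucleus, and is brought to its sites by Trim28 and KRAB zinc finger proteins. In many cells it holds endogenous retroviruses silent, and the RNA of such elements can set off the interferon response. Fibroblasts are known for secreting collagens and other matrix proteins, and for signals such as Wnt antagonists, chemokines and growth factors that act on neighbouring cells.

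FPKM, a fragment count scaled by transcript length and by library depth, was given for 19282 genes in every library of the experiment, and 8634 genes that reached 1 FPKM in at least 3 of the 9 libraries were tested. Genes were tested with limma on log2(FPKM + 0.1) in a fit to all 9 libraries, and fold changes are on this scale, which understates the change of low genes. Genes that passed both an adjusted p-value of 0.05 and a 2-fold change are referred to as called, and those that passed the p-value alone as changed at any fold. The width of the deposited intervals corresponded to a median of 28.1 to 34.1 fragments behind a locus near 1 FPKM and of 719 to 829 near 10 FPKM, so values well under 1 FPKM rest on few fragments. Pearson's r of log2 values across genes was 0.945 to 0.949 within the 2 groups and 0.904 to 0.918 between them. The labels do not say that replicates are separate cultures, so p-values measure the spread between these libraries.

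The targeted gene, *Setdb1*, had 5.95, 5.53 and 5.16 FPKM untreated against 4.16, 4.20 and 6.52 FPKM in libraries carrying the day 5 label. Replicate 3 of day 5 thus lay above every untreated library, and the difference of -0.19 on the log2 scale (SE 0.16, limma adjusted p = 0.398) was within the spread. A gene-level FPKM does not show the loss of single exons, and the locus overlaps another gene. In replicate 3 the median log2 difference of the interferon list from the untreated mean was 2.03, beside 2.07 and 2.04 in replicates 1 and 2, and that of the Atf4 list described further on was -0.71, beside -0.76 and -0.85. With replicate 3 left out, 137 genes were called higher and 119 lower, among them 131 of the genes called higher and 107 of those called lower with it.

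The libraries were checked against cell type markers. The summed level of 11 fibroblast markers was 1732 to 1743 FPKM in untreated libraries and 1412 to 1494 FPKM at day 5, and *Vim*, the intermediate filament of mesenchymal cells, was at 867 to 908 and 879 to 938 FPKM. Of the 9 fibroblast markers tested, 6 were lower and 1 higher at any fold, *Col3a1* and *Dcn* were called lower, and the median log2 fold change was -0.34. *Col1a2*, *Prrx1*, *Twist1* and *Pdgfrb* were the other 4 lower ones, with -0.53, -0.58, -0.34 and -0.33, and *Thy1* was the higher one with 0.68. Of 13 blood cell markers, 11 stayed under 1 FPKM in all 6 libraries, and the sum of the list was 1.92 to 2.95 FPKM untreated and 2.12 to 2.86 FPKM at day 5. The muscle and neural lists had 10 of 10 and 10 of 13 markers under 1 FPKM. The pluripotency and the bone, cartilage or fat lists had 10 of 12 and 14 of 16. Their sums were not all low. In untreated libraries the neural list summed to 39.3 to 41.3 FPKM, mostly from *Ncam1* and *Gap43*. The bone, cartilage or fat list summed to 366 to 411 FPKM there, mostly from *Spp1*. The part of these lists in the results was not tested. Fewer cells of a kind and less RNA per cell cannot be told apart in such bulk libraries.

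In total, 174 genes (2.02% of those tested) were called higher and 114 (1.32%) lower at day 5. At any fold change, 1662 genes (19.2%) were higher and 1599 (18.5%) lower, so small shifts were frequent in both directions and most stayed under 2-fold. The counts rose to 328 higher and 149 lower with no filter on low values. After quantile normalization the split was 145 higher against 146 lower. Of the 288 called genes, 30 were listed at 0 FPKM in at least 1 of the 6 libraries, and 13 of these in all libraries of a group. A 0 in these files can be a failed estimate: *Psph*, a serine synthesis enzyme, was listed at 70.4, 76.3 and 65.5 FPKM untreated and at 0 in all 3 day 5 libraries. These 30 genes are counted apart.

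This left 155 genes higher and 103 lower. Of the 155, 54 belong to the list of interferon-induced genes, led by *Oasl2*, *Rsad2*, *Ifit1* and *Ifi44* with log2 fold changes of 5.88, 5.48, 5.20 and 5.19. The remaining 101 genes rose by a median of 2.53-fold and the 103 lower genes fell by a median of 2.54-fold. In all untreated libraries 38 of the 101 genes were under 1 FPKM, so they passed the filter only through libraries after 4OHT, against 2 of 103 lower genes and 3.25% of all genes tested above 0. The levels of the higher and the lower genes are therefore not compared, since the filter bears on them unequally.

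**Figure D1:**
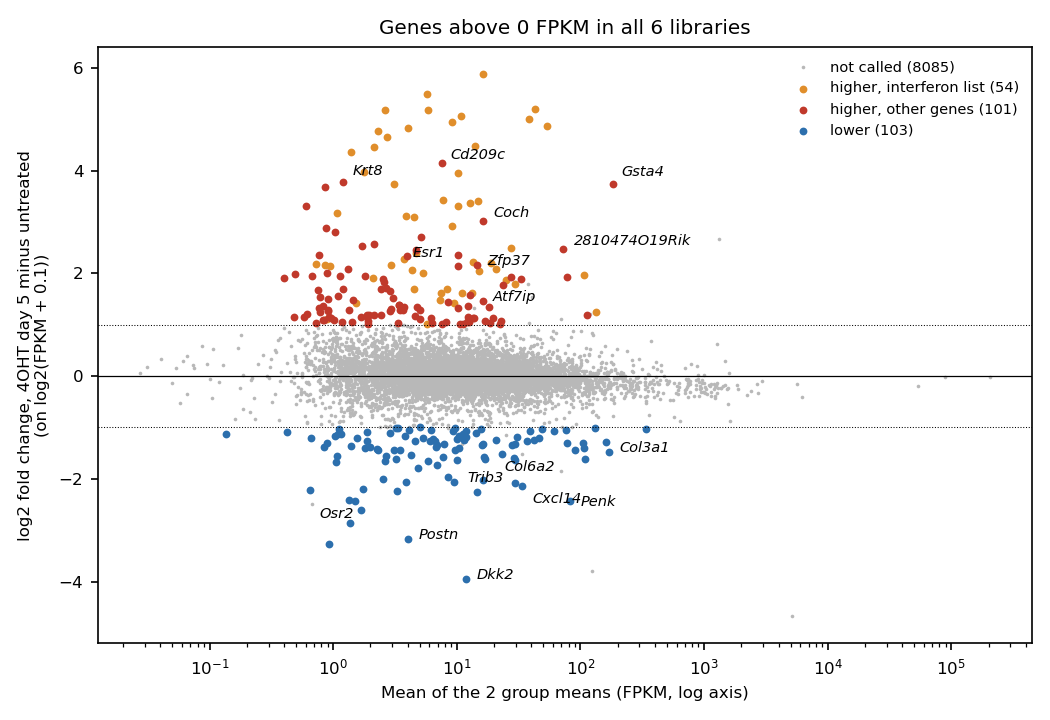
Each point is one of the genes tested and above 0 FPKM in all 6 libraries, with the mean of the 2 group means in FPKM on a log axis and the log2 fold change of 4OHT day 5 against untreated on the vertical axis; dotted lines mark 2-fold. The 54 interferon-list genes reach the highest changes, *Gsta4* stands apart as a gene that was both abundant and strongly higher, and *Dkk2* has the lowest value among genes called lower.

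The 15 genes with the largest rise outside the interferon list were *Cd209c*, *Krt8*, *Gsta4*, *Gm3776*, *Gsta1*, *Coch*, *Gm5868*, *Plac8*, *Chst13*, *2810474O19Rik*, *Clu*, *Ulbp1*, *Otud1*, *Zfp37* and *Esr1*. Among the 15 genes with the largest fall were *Dkk2*, *Spock3*, *Postn*, *Osr2*, *Penk*, *Gfra2*, *Fabp4*, *Adm*, *Grm7*, *Adam12*, *Cxcl14*, *Gjb2*, *Vldlr* and *Apcdd1*. They were taken from called genes whose groups do not overlap, so the clear gap between the groups in the plot of single libraries follows from the choice.

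**Figure D2:**
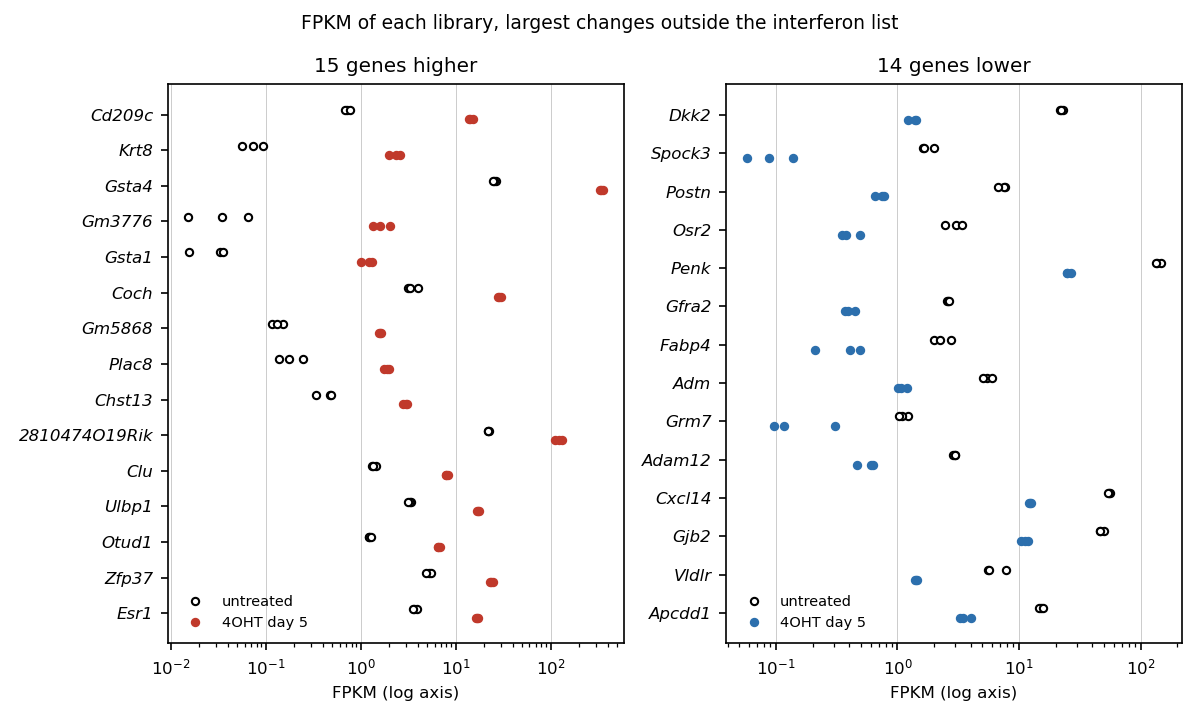
FPKM of each library on a log axis for the 15 genes with the largest rise (left) and 14 of the 15 with the largest fall (right) outside the interferon list, with open circles for the 3 untreated and filled circles for the 3 day 5 libraries. *Gsta4* moves from 24.7 to 26.7 FPKM up to 328 to 357 FPKM, while *Gm3776* and *Gsta1* start under 0.1 FPKM, where single values rest on few fragments.

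The highest level among the 101 genes was reached by *Gsta4*, which encodes a glutathione S-transferase that detoxifies products of lipid peroxidation. It was at 26.7, 25.2 and 24.7 FPKM in the untreated libraries and at 357, 342 and 328 FPKM at day 5. The ratio of the means was 13.4, with a log2 fold change of 3.74 (SE 0.04, adjusted p = 2.70e-09). All 3 day 5 libraries lay far above every untreated library, and the spread within each group was small beside the gap.

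The rise extended to the neighbours of *Gsta4* on chromosome 9 (mm9). In the stretch from 78023721 to 78116973, 4 consecutive genes were called higher, *C920006O11Rik*, *Gsta4*, *Gsta1* and *Gm3776*. All but *Gsta4* were under 1 FPKM in every untreated library, so they passed the filter only through libraries after 4OHT. The run of calls thus follows in part from the filter. *Gsta1*, at 78078476 to 78090490, went from 0.0330, 0.0156 and 0.0352 FPKM to 1.31, 1.00 and 1.23 FPKM. *Gm3776*, at 78104936 to 78116973, went from 0.0649, 0.0153 and 0.0346 FPKM to 1.61, 1.36 and 2.03 FPKM. *Gsta1* and *Gm3776* are close paralogs, and since the aligner kept 1 position for each read, reads of one can be counted on the other and the share of each is uncertain.

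Further along the same stretch, genes too low to be tested followed. *Gm10639* and *Dppa5a*, a gene of pluripotent cells, were listed at 0 in all untreated libraries and at 0.613, 0.536 and 0.744 FPKM and 1.37, 0.972 and 0.945 FPKM at day 5. *Gsta2* was at 0.0333, 0 and 0 FPKM untreated and at 0.142, 0.422 and 0.244 FPKM at day 5. The rise was not unbroken: *Omt2a* and *Omt2b*, between *Gm10639* and *Gsta2*, were listed at 0 in every library of both groups. The flanking genes moved less: *Ick*, before the cluster, had a log2 change of 0.76 (adjusted p = 0.00761), *Fbxo9* of 0.38 (adjusted p = 0.000903) and *Elovl5* of 0.13 (adjusted p = 0.0582), and beyond it *Ddx43* had 0.65 (adjusted p = 0.0746) and *Mb21d1* 0.37 (adjusted p = 0.00332). *Mto1*, past *Mb21d1*, was listed at 0 in day 5 replicate 3 and was not called (log2 change -2.06, adjusted p = 0.359). No other run of more than 2 called neighbours within 100000 bases of each other was found outside the interferon list. The neighbouring pairs were *Serpinb9* and *Serpinb9b* on chromosome 13 among the higher genes, and *Col6a1* and *Col6a2* on chromosome 10 and *Slc6a9* and *Artn* on chromosome 4 among the lower genes.

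Of 32 tested silencing factors, 2 were called higher, *2810474O19Rik* and *Atf7ip*, and 0 lower, where 2.02% of all genes tested were called higher. At any fold 10 of the 32 were higher and 4 lower, with a median log2 fold change of -0.05. Both called genes encode partners of Setdb1. *2810474O19Rik*, now named *Resf1*, encodes a protein that binds Setdb1 and takes part in the silencing of retroviruses. Its level was 22.1, 22.6 and 21.7 FPKM untreated and 124, 113 and 133 FPKM at day 5, a log2 fold change of 2.47 (SE 0.06, adjusted p = 7.02e-08). *Atf7ip* rose from 8.50, 8.78 and 8.24 FPKM to 22.3, 23.8 and 25.3 FPKM, a log2 fold change of 1.47 (SE 0.06, adjusted p = 1.63e-06). In both genes every day 5 library lay above every untreated one with a wide gap. The corepressor *Trim28* was at 86.3 to 90.7 FPKM untreated and 83.6 to 88.3 FPKM at day 5, a log2 difference of -0.05 (limma adjusted p = 0.274). *Fam208a*, a member of the HUSH silencing complex, reached a log2 value of 0.77 (adjusted p = 3.66e-05), which is under 2-fold.

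The cell surface and epithelial genes among the top risers started from low levels. *Cd209c*, a C-type lectin gene, had 0.718, 0.680 and 0.774 FPKM untreated and 14.3, 13.8 and 15.3 FPKM at day 5, a log2 fold change of 4.14. Its annotated span on chromosome 8 overlaps an endogenous retrovirus, whose fragments can be counted on the gene. *Krt8*, a keratin of simple epithelia, had 0.0557, 0.0923 and 0.0742 FPKM untreated and 1.97, 2.61 and 2.35 FPKM at day 5. *Krt19* also rose, from 2.05, 2.06 and 2.23 FPKM to 5.08, 5.66 and 5.08 FPKM (log2 fold change 1.28, adjusted p = 3.74e-06). The summed level of 14 epithelial and endothelial markers was 3.36 to 3.67 FPKM untreated and 9.27 to 11.1 FPKM at day 5. Of these markers 11 stayed under 1 FPKM in all 6 libraries, *Krt5* and *Krt14* were listed at 0 in all of them, and the epithelial adhesion genes *Epcam* and *Cdh1* were at 1.02 to 1.38 and 0.0508 to 0.103 FPKM untreated and at 1.31 to 1.60 and 0.134 to 0.170 FPKM at day 5.

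The other leading risers have varied roles. *Coch*, which encodes an extracellular matrix protein of the inner ear, went from 4.05, 3.15 and 3.27 FPKM to 30.03, 27.9 and 29.0 FPKM. *Clu*, an extracellular chaperone, went from 1.45, 1.33 and 1.36 FPKM to 8.32, 7.86 and 7.83 FPKM. *Zfp37*, a KRAB zinc finger gene, went from 5.25, 5.50 and 4.91 FPKM to 23.6, 24.5 and 22.9 FPKM. It was the only 1 of 211 tested *Zfp* genes to be called higher, with *Zfp521* the only one called lower, from 4.50, 4.28 and 4.71 FPKM to 2.03, 2.10 and 2.42 FPKM. The log2 fold change of *Zfp521*, -1.01, fell just short of 2-fold without untreated replicate 3 (-0.981), day 5 replicate 1 (-0.966) or day 5 replicate 2 (-0.989). *Otud1*, a deubiquitinase, rose with a log2 fold change of 2.33, and *Esr1*, the oestrogen receptor alpha, went from 3.61, 3.88 and 3.56 FPKM to 16.4, 17.1 and 16.7 FPKM. Among the germline genes, 2 of 42 were tested and both were called higher: *Stag3*, a meiotic cohesin, from 0.656, 0.961 and 1.58 FPKM to 3.90, 3.95 and 4.22 FPKM, and *Tdrd9*, listed at 0 in 2 untreated libraries. Neither reached 1 FPKM in more than 1 untreated library, so both passed the filter only through libraries after 4OHT. Their shared direction follows largely from the filter and is not read as a result on germline genes.

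*Dkk2*, *Fzd1* and *Apcdd1*, which act on Wnt signalling, were called lower. *Dkk2*, a secreted Wnt antagonist, was at 21.7, 22.9 and 22.1 FPKM untreated and at 1.41, 1.42 and 1.23 FPKM at day 5, a log2 fold change of -3.94 (SE 0.08, adjusted p = 4.31e-08). *Fzd1*, a Wnt receptor, fell from 43.4, 44.6 and 46.3 FPKM to 13.8, 15.1 and 14.4 FPKM (log2 fold change -1.63, adjusted p = 1.25e-07). *Apcdd1*, another Wnt inhibitor, had a log2 fold change of -2.06. Of 27 tested genes of the Wnt list, 2 were called lower and 1 higher, *Wisp2*, a matricellular protein at 0.446 ± 0.125 against 1.01 ± 0.173 FPKM (SD, n = 3 each), and 12 were lower and 3 higher at any fold. Among all genes tested, 1.32% were called lower and 2.02% higher, and 18.5% were lower and 19.2% higher at any fold. The value of *Wisp2*, 1.04, was 0.829 without untreated replicate 3 and 0.910 without day 5 replicate 3.

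*Penk*, *Cxcl14* and *Cxcl12*, which encode secreted peptides, were called lower as well. *Penk*, the precursor of the enkephalins, was at 136, 148 and 134 FPKM untreated and at 26.9, 24.98 and 24.9 FPKM at day 5. *Cxcl14*, a chemokine of fibroblasts, went from 55.9, 54.7 and 54.0 FPKM to 12.1, 12.4 and 12.6 FPKM, and *Cxcl12*, the ligand of Cxcr4, from 42.6, 44.8 and 43.3 FPKM to 13.8, 15.03 and 14.2 FPKM. Other chemokine genes were higher: *Cxcl10* and *Ccl5*, both in the interferon list, had log2 fold changes of 4.87 and 4.47. In *Penk*, *Cxcl14* and *Cxcl12* the 3 day 5 libraries were close to each other and far under the untreated ones. In the list of NF-kB and inflammation genes, *Cxcl14*, *Cxcl12* and *Ptgs2*, the inducible cyclooxygenase, were the 3 of 29 called lower, and *Icam1*, an adhesion molecule, was the 1 called higher, at 0.471, 0.419 and 0.348 FPKM against 1.82, 1.88 and 1.88 FPKM. *Ptgs2*, with a log2 fold change of -1.06, had -0.991 without day 5 replicate 3.

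The transcription factors *Osr2* and *Osr1*, known from limb and connective tissue development, were the 2 of 36 tested mesenchymal factors called lower. *Osr2* went from 2.45, 3.02 and 3.41 FPKM to 0.349, 0.373 and 0.491 FPKM, and *Osr1* from 12.7, 16.2 and 13.7 FPKM to 5.38, 5.78 and 6.78 FPKM. At any fold, 16 of the 36 were lower and 2 higher. The shares over all genes tested were 1.32% called lower, and 18.5% lower and 19.2% higher at any fold. Of the bone morphogenetic protein (BMP), Notch and Hedgehog genes, 2 of 29 were called lower, among them *Gas1*, a coreceptor of Hedgehog signalling (50.6, 51.5 and 55.4 against 21.1, 23.0 and 21.6 FPKM).

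Collagen and other matrix genes were lower in part, where 1.32% of all genes tested were called lower and 18.5% were lower at any fold. Of 17 tested collagen genes, 4 were called lower and 0 higher, and 14 were lower and 2 higher at any fold, with a median log2 fold change of -0.41 against 0.00 over all genes tested. *Col3a1*, a fibrillar collagen, was at 260, 243 and 251 FPKM untreated and at 90.8, 94.0 and 86.5 FPKM at day 5, a log2 fold change of -1.47 (SE 0.04, adjusted p = 2.00e-07). The 3 chains of type VI collagen, the beaded filament around cells, fell alike: the log2 fold changes of *Col6a1*, *Col6a2* and *Col6a3* were -1.28, -1.44 and -1.32, from 230 ± 15.9, 133 ± 1.32 and 11.2 ± 0.710 FPKM to 94.2 ± 2.32, 48.9 ± 0.813 and 4.41 ± 0.106 FPKM (SD, n = 3 each). The basement membrane chains *Col4a1* and *Col4a2*, whose loci overlap another gene, were the 2 collagens higher at any fold, with log2 fold changes of 0.27 and 0.15.

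Of 34 tested genes of the list of other matrix proteins, 8 were called lower and 0 higher, and 21 were lower and 5 higher at any fold. *Postn*, a matricellular protein of connective tissue, fell most, from 7.74, 7.51 and 6.66 FPKM to 0.752, 0.652 and 0.771 FPKM (log2 fold change -3.17, adjusted p = 7.53e-08). It was followed by *Dcn*, a proteoglycan that binds collagen fibrils, from 12.2, 11.4 and 11.1 FPKM to 3.41, 3.84 and 4.18 FPKM, and by *Mfap4* and *Ogn* with -1.36 and -1.32, where *Ogn* shares its locus with another gene. *Thbs1*, *Lama4*, *Fbn2* and *Lox* were the other 4, with log2 fold changes of -1.31, -1.30, -1.25 and -1.05. *Sparc* and *Fn1*, both abundant matrix genes, were at 536 and 113 FPKM untreated and at 498 and 105 FPKM at day 5, differences within the spread (adjusted p = 0.291 and 0.354), so the fall was not shared by the whole list.

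Among the lists of at least 10 tested genes, that of Atf4 and its targets had the highest share of genes lower at any fold, close to that of the collagens. Atf4 is the transcription factor of the amino acid and endoplasmic reticulum (ER) stress response, and its targets include enzymes and carriers of amino acids, transfer RNA synthetases and regulators such as *Trib3*. Of 29 tested genes of this list, 10 were called lower and 0 higher, and 24 were lower and 0 higher at any fold. Their median log2 fold change was -0.83. Among all genes tested, 1.32% were called lower and 18.5% were lower at any fold. *Trib3*, a pseudokinase that restrains Atf4, was at 24.5, 25.1 and 24.9 FPKM untreated and at 8.57, 7.96 and 8.16 FPKM at day 5, a log2 fold change of -1.58 (SE 0.07, adjusted p = 2.96e-06). *Ddit4*, an inhibitor of mTORC1, fell from 25.2, 26.2 and 25.8 FPKM to 8.69, 8.54 and 7.71 FPKM, and *Cth*, which makes cysteine, from 11.3, 10.5 and 10.0 FPKM to 2.96, 3.25 and 3.19 FPKM. *Vldlr*, a lipoprotein receptor, fell furthest in the list, from 7.76, 5.61 and 5.63 FPKM to 1.40, 1.42 and 1.44 FPKM.

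The other called members, named after their values were seen, were the amino acid carriers *Slc7a11*, *Slc6a9* and *Slc7a5* with log2 fold changes of -1.55, -1.24 and -1.03, *Chac1*, which breaks down glutathione, with -1.19, *Shmt2*, a mitochondrial enzyme of serine use, with -1.02, and *Psph*, listed at 0, where *Slc6a9* and *Shmt2* each overlap another gene. *Asns*, the asparagine synthetase, was at 125, 122 and 116 FPKM untreated and at 63.1, 67.1 and 59.7 FPKM at day 5, just inside 2-fold. *Fgf21*, a hormone gene of the growth factor list, fell with a log2 fold change of -1.65. Of 21 tested ER chaperone genes, *Herpud1* was the 1 called lower, with a log2 fold change of -1.06, and 11 were lower and 3 higher at any fold.

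Atf4 binds with a C/EBP partner to elements that contain the letters TGATGNAA. To show these in genes that fell, the 250 bases before the start site were read from the RefSeq promoter table (GRCm38.p6, where the gene strand is written 5′ to 3′), with matches on either strand in capitals. The table held 8 of the 10 called list members, of which 3 had a match, *Slc7a11*, *Chac1* and *Vldlr*, and 17 of the 19 members not called lower, of which 5 had one. Of all 32851 promoters of this length in the table, 3.45% held a match. Counted by gene, as for the list members, 143 of 6648 tested genes with a promoter there (2.15%) had one. *Slc7a11* (chr3:50443614-50443863, minus strand) has 2 matches, *Chac1* (chr2:119350992-119351241, plus strand) has 1, and *Trib3* (chr2:152344061-152344310, minus strand) has none in this window. A match describes the letters alone.
Slc7a11: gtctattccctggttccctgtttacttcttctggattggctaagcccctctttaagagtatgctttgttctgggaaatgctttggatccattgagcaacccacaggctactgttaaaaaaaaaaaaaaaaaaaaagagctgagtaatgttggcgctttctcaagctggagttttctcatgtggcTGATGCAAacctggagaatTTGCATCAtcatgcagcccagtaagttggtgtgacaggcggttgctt
Chac1: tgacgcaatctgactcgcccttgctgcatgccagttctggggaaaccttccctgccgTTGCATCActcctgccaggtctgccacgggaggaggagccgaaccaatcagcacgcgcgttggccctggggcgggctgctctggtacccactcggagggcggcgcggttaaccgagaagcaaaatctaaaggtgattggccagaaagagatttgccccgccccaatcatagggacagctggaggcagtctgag
Trib3: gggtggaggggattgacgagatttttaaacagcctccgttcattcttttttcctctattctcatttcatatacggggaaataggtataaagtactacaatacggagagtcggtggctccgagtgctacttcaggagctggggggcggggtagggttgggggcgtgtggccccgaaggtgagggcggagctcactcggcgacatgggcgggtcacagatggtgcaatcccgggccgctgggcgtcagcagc

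Metabolic and housekeeping groups differed in how far they moved. Over all genes tested, 1.32% were called lower, and 18.5% were lower and 19.2% higher at any fold. Of 28 tested genes of glycolysis and the hypoxia response, 3 were called lower, the vascular peptide gene *Adm*, *Vegfa*, the main growth factor of blood vessels, and *Pfkl*, a phosphofructokinase, and 21 were lower and 0 higher at any fold. The value of *Pfkl*, -1.06, was -0.965 without day 5 replicate 1. *Vegfa* was at 16.5, 16.4 and 16.9 FPKM untreated and at 6.76, 7.44 and 7.61 FPKM at day 5. Of 57 tested ribosomal protein genes, 0 were called and 34 were lower at any fold, with a median log2 fold change of -0.19 that was 0.03 after quantile normalization. Of 64 genes of oxidative phosphorylation, 0 were called at 2-fold, and 9 were lower and 3 higher at any fold. Of 27 genes of the histone clusters, 0 were called and 20 were lower at any fold, with a median of -0.29 that was -0.13 after quantile normalization.

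Proliferation genes showed no call at 2-fold. Over all genes tested, 2.02% were called higher and 1.32% lower, and 19.2% were higher and 18.5% lower at any fold. Of 28 tested genes of mitosis, 4 were higher and 3 lower at any fold, and of 32 genes of DNA replication, 3 were higher and 3 lower, shares under those of all genes. In the p53 target list, 2 of 24 were called higher, *Trp53inp1*, a regulator of cell death and autophagy, and *Tap1*, a peptide transporter that is also in the interferon list. At any fold, 15 were higher and 1 lower, among them the cell cycle inhibitor *Cdkn1a* with a log2 fold change of 0.86. Lysosome and autophagy genes were higher at any fold in 17 of 32 and lower in 0, with a median of 0.35, and 2 were called higher, the autophagy receptor *Optn* and the sialidase *Neu1*. *Neu1* was at 8.31, 4.52 and 9.94 FPKM untreated and at 14.1, 14.99 and 14.9 FPKM at day 5, and its log2 fold change of 1.01 was 0.68 without untreated replicate 2 and 0.996 without day 5 replicate 2, both under 2-fold.

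**Figure D3:**
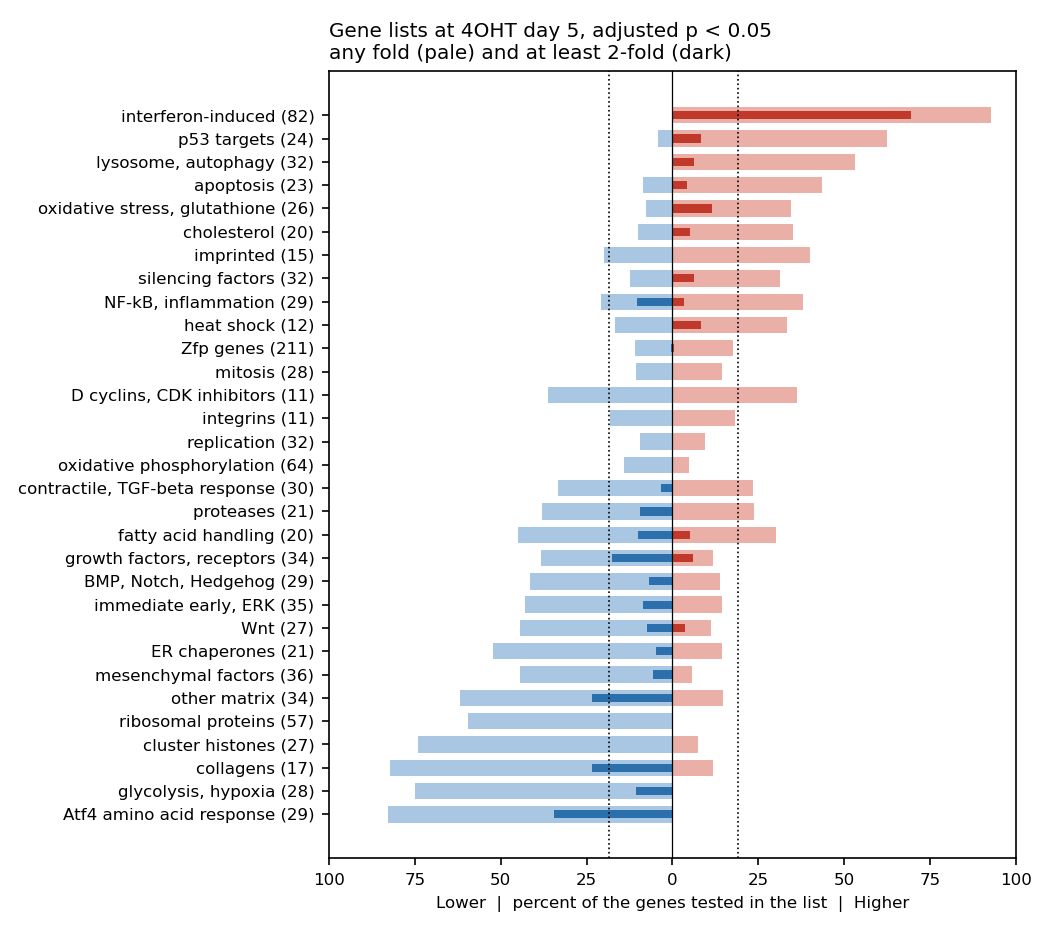
Share of tested genes in each list (number tested in brackets) that were higher (right) or lower (left) at 4OHT day 5 at an adjusted p-value under 0.05, at any fold (pale bars) and at least 2-fold (dark bars); dotted lines mark the shares at any fold over all genes, 19.2% higher and 18.5% lower. Among lists with at least 10 tested genes, the Atf4, collagen, glycolysis and histone lists lie furthest to the left and the interferon list furthest to the right.

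Growth factor genes moved both ways. The shares over all genes tested were 1.32% called lower and 2.02% called higher, and 18.5% and 19.2% at any fold. Of 34 tested, 6 were called lower and 2 higher, and the 4 lower genes with the largest change were *Fgf21*, *Ptn*, *Pdgfc* and *Vegfa*. *Angptl4*, an inhibitor of lipoprotein lipase, rose from 12.6, 11.96 and 11.9 FPKM to 26.4, 28.1 and 25.9 FPKM, and *Igfbp3*, which binds insulin-like growth factors, was higher at a low level, 0.258 ± 0.0245 against 0.700 ± 0.110 FPKM (SD, n = 3 each). Among immediate early and ERK pathway genes, 3 of 35 were called lower, *Fosl2*, *Egr2* and *Egr3*, transcription factors that growth factors induce. *Egr2* went from 9.54, 9.64 and 9.17 FPKM to 3.85, 3.72 and 4.12 FPKM. At any fold, 15 of the 35 were lower and 5 higher.

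In the remaining lists few members were called, and counts of 1 or 2 in a list are to be read against 2.02% higher and 1.32% lower over all genes tested. Both called members of the fatty acid list that fell bind fatty acids, *Fabp5* (179, 144 and 171 against 56.6, 52.5 and 51.8 FPKM) and *Fabp4* (1.99, 2.25 and 2.75 against 0.496, 0.406 and 0.210 FPKM), out of 20 tested. In the oxidative stress list, 3 of 26 were higher, *Gsta4*, *Gsta1* and the metallothionein *Mt2*, and 0 lower. Of 12 heat shock genes, *Cryab*, a small heat shock protein, was the 1 called higher, of 23 apoptosis genes *Casp12* (1.04, and 0.970 without untreated replicate 1 or 0.880 without day 5 replicate 2), and of 3 complement genes *Clu*. In the protease list, 2 of 21 were lower, *Adam12* and *Serpinf1*, an inhibitor of blood vessel growth at 156 ± 4.96 against 58.8 ± 2.21 FPKM (SD, n = 3 each). *Tgfb2*, a TGF-beta ligand, was the 1 of 30 contractile and TGF-beta genes called lower, and its log2 fold change of -1.09 was -0.98 without day 5 replicate 3. Of 4 tested protocadherins, *Pcdh18* and *Pcdhb20* were lower, the latter with -1.10, which was -0.794 without day 5 replicate 3. In the cholesterol and fatty acid lists, *Hsd17b7* and *Fabp3* were the members called higher, but *Hsd17b7* was listed at 0 in 2 and *Fabp3* in all 3 untreated libraries. None of 11 integrins, 11 D-type cyclins and CDK inhibitors, 15 imprinted and 4 *Hox* genes was called at 2-fold, while 4, 8, 9 and 1 of them passed the adjusted p at any fold, where 19.2% of all genes were higher and 18.5% lower.

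The genes called at day 5 were then measured at day 6 in the siRNA and inhibitor experiments. These tables were made separately, so no test across experiments was run. The paper describes the siRNA libraries as mRNA with single reads, whereas the day 5 libraries are total RNA freed of ribosomal RNA, with read pairs. Day, culture, RNA fraction and read type therefore cannot be told apart between the siRNA and day 5 results. In the siRNA experiment 2.58% of 10582 genes were called higher and 3.46% lower after 4OHT, and in the inhibitor experiment 4.87% of 11316 genes were higher and 6.21% lower. The 2 libraries of 4OHT with control siRNA stood apart from each other: the median log2 difference of the interferon list from the control siRNA mean was 2.57 in replicate 1 and 0.17 in replicate 2. In the 2 day 6 libraries of the inhibitor experiment it was 2.07 and 3.46, and at day 5 it was 2.07, 2.04 and 2.03. The siRNA counts were 54 higher and 79 lower without control siRNA replicate 1, 33 and 49 without control replicate 2, 546 and 564 without 4OHT replicate 1 and 541 and 489 without 4OHT replicate 2. The inhibitor counts were 315 and 373 without untreated replicate 1, and 313 and 346 without untreated replicate 2.

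Of the 103 genes lower at day 5, 97 were tested in the siRNA experiment, and 51 of them (52.6%) were called lower and 0 higher there. In the inhibitor experiment 101 were tested, and 61 (60.4%) were called lower and 5 higher. In both at once 46 of 97 were called lower, against 2.29% of all 10139 genes tested in both. Taken from the other side, the 51 and 61 genes are among 366 and 703 genes called lower at day 6. Without control siRNA replicate 1 or 2 the 51 became 19 and 17. The medians over the 97 and 101 genes were -2.07 and -1.71, beyond the 2-fold limit.

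Of the 101 genes higher at day 5 outside the interferon list, 91 and 97 were tested in the siRNA and inhibitor experiments, and 23 (25.3%) and 33 (34.0%) were called higher, among 273 and 551 genes called higher there. Called higher in both were 18 of 90, against 1.01% of all genes tested in both, and 0 were called lower in both. Of the 101 genes, 38 were under 1 FPKM in all untreated libraries of the day 5 experiment. Where such a gene was also low in the day 6 controls, it could be tested there only through treated libraries. Part of this overlap therefore follows from the filter, and the share of all genes is not a like comparison. The 23 became 7 and 6 without control siRNA replicate 1 and 2 and 39 without 4OHT replicate 1, and the 33 became 18 and 20 without untreated replicate 1 and 2 of the inhibitor experiment. The 18 include *Cd209c*, *Gsta4*, *Gm3776*, *2810474O19Rik*, *Otud1*, *Zfp37* and *Esr1* of the leading genes. *Zfp37* was at 6.35 and 5.48 FPKM with control siRNA and at 34.5 and 36.2 FPKM with 4OHT, and at 6.74 and 5.74 against 36.2 and 37.4 FPKM in the inhibitor experiment. *Gsta4* was at 17.4 and 16.5 against 86.4 and 501 FPKM, and at 27.4 and 24.7 against 151 and 213 FPKM. Its level after 4OHT thus differed widely between the 2 siRNA libraries, while both stayed above both controls.

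**Figure D4:**
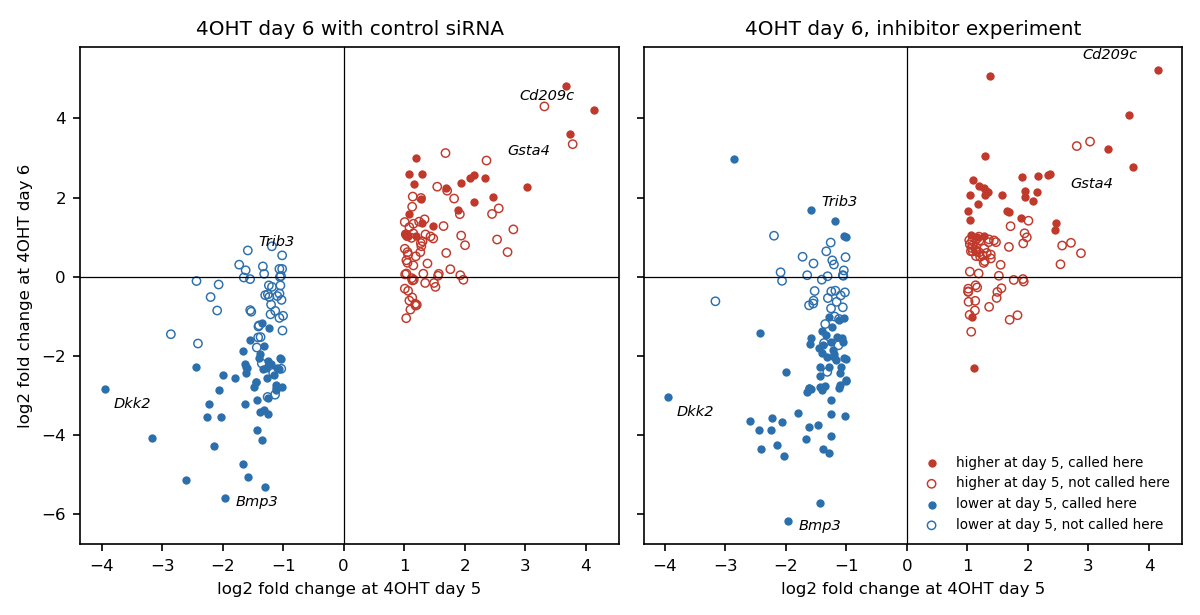
Log2 fold change at 4OHT day 6 with control siRNA (left) and in the inhibitor experiment (right) against that at day 5 for the genes called at day 5, above 0 FPKM in all 6 libraries and outside the interferon list; filled points were called at day 6 too. Most lower genes stay below 0 in both panels, while *Trib3* lies above 0 in the inhibitor experiment.

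The 2 Setdb1 partners were higher in all 3 experiments. *2810474O19Rik* was at 18.2 and 16.9 against 76.1 and 65.9 FPKM in the siRNA experiment and at 21.5 and 20.1 against 43.8 and 64.3 FPKM in the inhibitor experiment, with log2 fold changes of 2.01 (adjusted p = 0.000612) and 1.35 (adjusted p = 0.0230). For *Atf7ip* they were 1.28 (adjusted p = 0.00393) and 0.87 (adjusted p = 0.0292), the second under 2-fold. *Setdb1* itself was at 7.40 and 6.48 against 7.58 and 5.00 FPKM in the siRNA experiment, and at 8.76 and 10.1 against 0 and 5.30 FPKM in the inhibitor experiment, where the 0 can be a failed estimate.

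The collagen and matrix genes called lower at day 5 were lower in both day 6 experiments. All 12 had a negative log2 fold change in each, 12 of 12 were called lower in the siRNA experiment and 9 of 12 in the inhibitor experiment. *Col3a1* was at 391 and 374 against 31.0 and 99.1 FPKM, and at 302 and 308 against 19.4 and 26.1 FPKM. *Dcn* was at 49.4 and 49.2 against 1.40 and 1.39 FPKM, and at 11.3 and 11.7 against 1.098 and 2.09 FPKM. *Postn* was lower in the siRNA experiment, at 104 and 95.6 against 10.5 and 3.22 FPKM, whereas in the inhibitor experiment the groups overlapped, at 13.4 and 13.3 against 5.48 and 13.7 FPKM. *Dkk2*, *Penk*, *Cxcl14*, *Fzd1*, *Osr2* and *Apcdd1* were called lower in both as well. *Sparc* and *Fn1*, within the spread at day 5, had log2 fold changes of -0.99 and -0.83 in the siRNA experiment (limma adjusted p = 0.00938 and 0.0261). In the inhibitor experiment they had -0.40 and -0.23 (limma adjusted p = 0.115 and 0.203).

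The Atf4 list did not keep its direction. At day 5 the median of the 28 members above 0 and tested in all 3 experiments was -0.71, -0.80 and -0.71 in the 3 libraries against the untreated mean. In the inhibitor experiment it was 0.52 and 0.80 in the day 6 libraries, with 4 and 1 of the 28 genes below the control mean. In the siRNA experiment replicate 1 had 0.92 and replicate 2 had -0.39, so these 2 libraries of a group lay on opposite sides of their controls. Of the 9 members called lower at day 5 and above 0, 0 were called lower at day 6, and 3 (*Trib3*, *Chac1* and *Slc7a5*) were called higher in the inhibitor experiment. *Trib3* was at 8.17 and 7.43 against 20.0 and 32.3 FPKM there, and at 9.78 and 11.3 against 43.4 and 6.39 FPKM in the siRNA experiment. In long-term KO, which shares the untreated libraries, *Trib3* was at 2.55, 2.58 and 2.12 FPKM and the median log2 fold change of the list was -1.40. The medians of other lists also differed between experiments. The histone cluster list, lower at day 5, had medians of 0.52 and 0.25 in the siRNA libraries after 4OHT and 0.93 and 0.41 in the inhibitor ones. Of its genes, 1 of 44 and 5 of 47 were higher and 0 lower there at any fold. The lysosome and autophagy list, higher at day 5, had 0.01 and 0.29 in the former and -0.23 and -0.17 in the latter. There 4 of 34 and 2 of 35 genes were higher and 1 and 2 lower at any fold. The cholesterol list had a median log2 fold change of 0.08 at day 5, -0.61 in the siRNA experiment and -1.28 in the inhibitor experiment. In these 2 experiments 11 of 24 and 20 of 25 of its genes were lower at any fold, and 0 and 1 higher. The members tested in these lists differ between experiments.

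**Figure D5:**
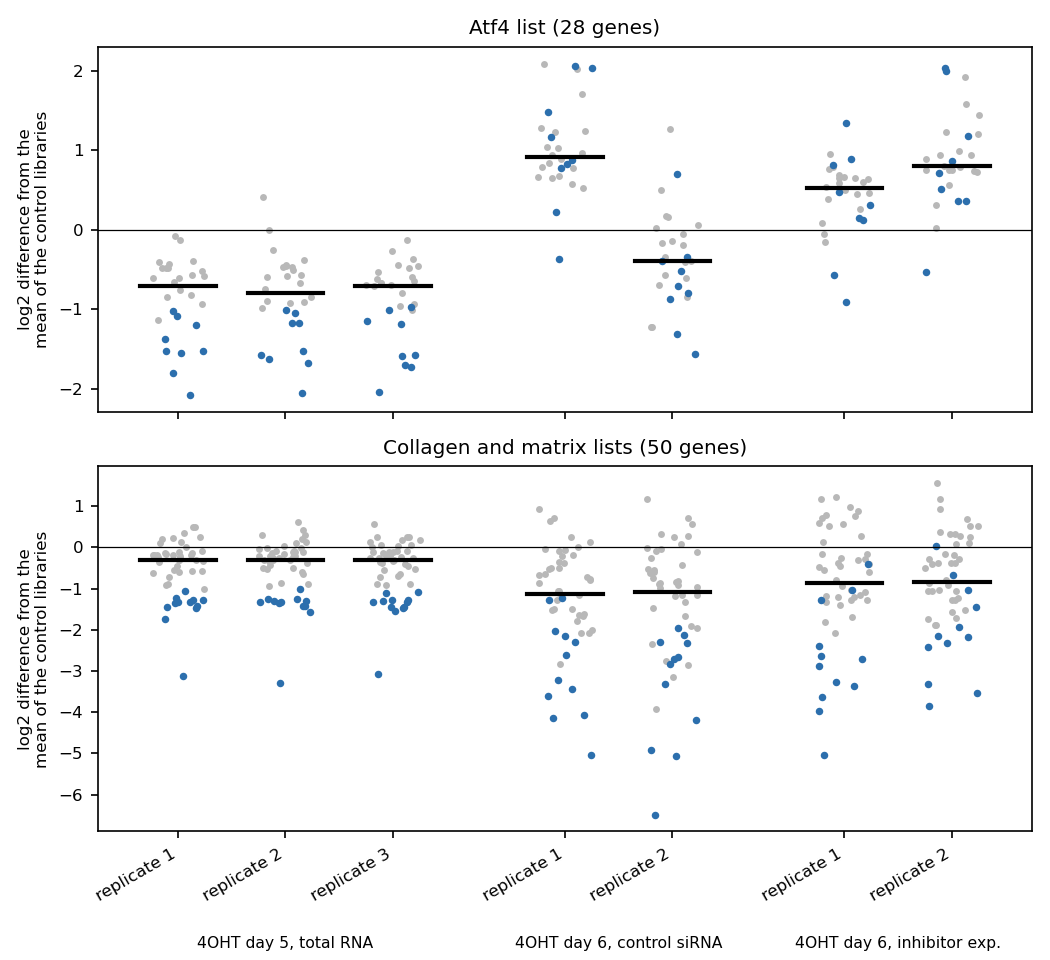
Log2 difference of each gene from the mean of its own control libraries in each library after 4OHT, for 28 genes of the Atf4 list (top) and 50 genes of the collagen and matrix lists (bottom), with the median as a bar and genes called lower at day 5 in blue. The medians of the matrix genes lie below 0 in all 7 libraries, while those of the Atf4 genes lie below 0 in the 3 day 5 libraries and 1 siRNA library and above 0 in the other 3.

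The genes with the largest change at day 5 had varied levels in long-term KO. *Gsta4*, *Cd209c* and *2810474O19Rik* were at 164 to 170, 7.87 to 8.16 and 57.3 to 57.7 FPKM, between the untreated and day 5 levels. *Coch* was at 3.30 to 3.45 FPKM, within the untreated range of 3.15 to 4.05 FPKM, and *Esr1* at 0.561 to 0.608 FPKM, below it. *Dkk2* and *Penk* were at 0.505 to 0.616 and 3.38 to 3.93 FPKM, below their day 5 levels. *Postn* and *Ogn* were at 26.6 to 27.8 and 198 to 234 FPKM, above their untreated levels, and *Col3a1* at 233 to 248 FPKM overlapped its untreated range. These values share their controls with the day 5 comparison and were not tested against it here.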

How the data were processed

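RNA was measured in *Setdb1* cKO iMEFs. The authors removed ribosomal RNA from the total RNA libraries, aligned 100-base read pairs to mm9 with TopHat2 (2.0.12) and reported a single position for a read that fitted several. Transcripts of every library were assembled and quantified separately by Cufflinks against RefSeq. The deposited FPKM values and intervals were used. The authors' own comparison tables hold fold changes and p-values of Cuffdiff and were not used.

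Rows of the total RNA experiment carry no gene names. A locus was matched to a gene named in the other experiments where it covered at least 95% of the gene with an overlap over union of at least 0.5. In the named libraries this rule returned the file's own name for every locus it matched. Loci that joined several genes were not used, and 2163 genes lay in such a locus, in at least 1 library, without a row of their own. The values, as log2(FPKM + 0.1), were tested within an experiment by limma 3.58.1 (R 4.3.3), using all groups of that experiment, trended variances and two-sided Benjamini-Hochberg adjusted p-values. Genes needed 1 FPKM in 3 libraries (2 in the other experiments). Other steps used Python with pandas 2.3.3, numpy 2.4.6 and matplotlib 3.10.9. On simulated data, 193 of 200 changed genes among 8634 were called for day 5 (97 at 4-fold and 96 at 8-fold), and 0 others. Recovery of genes changed close to 2-fold was not tested. For the siRNA experiment 178 of 200 and 2 others were called among 10582 genes, and for the inhibitor experiment 192 of 200 and 16 others among 11316.

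The members and the gene lists were chosen with earlier results of these data known. Named are the 15 called genes with the largest change in each direction that were above 0 FPKM in all 6 libraries, not overlapping between groups, alone at their locus and outside the interferon list, and up to 4 called members of each list per direction, and genes outside this rule, given for their list, position or day 6 values, were named after their values were seen. A gene that met the rule is not reported here. The labels do not say that a replicate number marks a shared culture, and deviations of same-numbered untreated and day 5 libraries correlated at -0.05 to 0.07. The main test therefore did not use the numbers as pairs. The precision is set by 3 libraries per group at day 5 and 2 per group at day 6. Alternatives covered the pseudocount, the filter, scaling, which groups were fitted, a block for the replicate number, libraries left out, the criterion and the handling of loci.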

Additional observations from a re-analysis of the deposited data

Results flagged for a closer look

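For 6 of the genes reported by the naming rule above, libraries after 4OHT lay on one side of their controls at day 5. In a day 6 experiment every such library lay on the other side. Called genes outside that rule were not counted here. Among them, *Chac1*, *Slc7a5*, *Shmt2* and *Slc7a11* of the Atf4 list fell at day 5 and lay above both untreated libraries at day 6 in the inhibitor experiment. The difference between the experiments was not tested, and their tables were normalized separately. In the inhibitor experiment *Trib3*, the Atf4-induced pseudokinase, had a log2 fold change of 1.69 at day 6 against -1.58 at day 5 (limma adjusted p at day 6 = 0.00269). *Adam12*, a metalloprotease, had 1.04 against -2.20, with an adjusted p of 0.0571 at day 6. For *Pdgfc*, *Mt2* and *Neu1* the day 6 values of 0.31, -0.61 and -0.30 did not pass the test (adjusted p = 0.305, 0.195 and 0.359). *Wisp2* was at -1.05 with control siRNA and at -0.96 in the inhibitor experiment against 1.04 at day 5 (adjusted p at day 6 = 0.313 and 0.232).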

How the results depend on the processing

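For 4OHT day 5 against untreated, 174 genes higher became 328 with no filter on low values and 97 with a filter at 5 FPKM, and with no fold limit the counts were 1662 higher and 1599 lower. Leaving out each library gave 136 to 176 higher and 97 to 126 lower, and quantile normalization gave 145 and 146. For the siRNA experiment the count of higher genes was 154 with a pseudocount of 1. Fitting only the 2 groups gave 47 higher and 133 lower, no fold limit 766 and 688, and an adjusted p under 0.01 gave 59 and 146. Leaving out each library gave 33 to 546 higher and 49 to 564 lower. For the inhibitor experiment, higher genes were 356 with a pseudocount of 1. No fold limit gave 1391 and 1436, the stricter p 326 and 393, and leaving out each library 313 to 545 and 346 to 562.

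Of the day 5 genes higher outside the interferon list, those called alike in the siRNA experiment numbered 13 with a pseudocount of 1, 45 with no filter, 14 at 5 FPKM, 8 with only the 2 groups, 247 with no fold limit, 7 at the stricter p and 6 to 39 with libraries left out. In the inhibitor experiment they numbered 20, 84 and 16 with these pseudocount and filter settings, 289 with no fold limit, 18 at the stricter p and 18 to 35 with libraries left out. Of the day 5 lower genes, 301 were called alike in the siRNA experiment with no fold limit, 32 at the stricter p and 17 to 64 with libraries left out, and 473 in the inhibitor experiment with no fold limit. The cause of these shifts was not tested, except that a filter or a fold limit changes which genes can be counted.

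With the replicate number as a block, 169 genes were higher and 111 lower at day 5. The deviations of same-numbered libraries correlated at -0.05, 0.07 and 0.03, so no pairing was seen, but these values cannot exclude a shared culture. Of 1428 alternative fits of the 79 named genes, which include the uncalled *Setdb1*, 1398 kept the outcome, 30 lost the call and 0 reversed. In 73 further cases a named gene was missing from the alternative fit, and these are not counted. A pseudocount of 1 ended 12 of these calls. Of 1596 list counts under alternatives, 154 moved. Depth limits values well under 1 FPKM.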
